A study of Mus musculus with 18 samples.

Results

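The 43 cell cycle and proliferation genes described here were picked by gene symbol from the 25230 symbols counted in mouse heart tissue. Hearts were taken 3 days after the left anterior descending artery had been tied, which infarcts part of the ventricle, and all 43 were found. By role they comprise 8 G1 cyclins and cyclin-dependent kinases (CDKs), 4 CDK inhibitors, 2 transcription factors, 11 genes of DNA replication and nucleotide supply and 18 genes of S to M phase and mitosis. All mice were male C57BL/6J, with no engineered allele named, all had the ligation, and each was given liraglutide, a glucagon-like peptide-1 receptor agonist, or phosphate-buffered saline (PBS). There were 6 groups of 3 libraries each. They were infarcted left ventricle (LV) with liraglutide, infarcted LV with PBS, atria with liraglutide, atria with PBS, non-infarcted LV with liraglutide and non-infarcted LV with PBS. Non-infarcted LV is the spared part of a heart that also holds an infarct, and sham-operated hearts, which the labels mention, were not analysed here. The sources used here do not give age, dose, route or start of treatment, and the labels call the libraries of a group biological replicates without saying that each is 1 animal.

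A cell enters division when D-type cyclins, bound to CDK4 or CDK6, phosphorylate the retinoblastoma protein and release E2F transcription factors. These switch on the genes that load the MCM helicase onto DNA and supply nucleotides. Later, cyclin A and cyclin B with CDK1, together with FOXM1 and the MYB-MuvB complex, drive the genes of mitosis, while CDK inhibitors such as p21 hold the kinases back. Adult mouse cardiomyocytes rarely divide, whereas fibroblasts, endothelial cells and infiltrating immune cells multiply in the days after an infarct.

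Library totals lay between 4280459 counts (infarcted LV with PBS, replicate 3) and 21853482 counts (atria with liraglutide, replicate 3), so that 3 counts in a library equal 0.137 to 0.701 CPM (counts scaled by the library total), the scale of all levels below. Log2 fold changes come from an edgeR quasi-likelihood fit on TMM-scaled counts of the 6 libraries compared, with p-values adjusted over all tested genes by the Benjamini-Hochberg method and a threshold of 0.05. Atria and LV were told apart by their markers. The 5 atrial cardiomyocyte markers summed to 37100 to 52400 CPM over the atrial libraries and to 144 to 535 CPM over the LV libraries. This does not check the label of infarcted against non-infarcted LV. Among the atria, replicate 3 with liraglutide stood apart with 1580 CPM over 4 ventricular markers, and replicate 2 with PBS with 310 CPM over 4 adipocyte markers. In bulk tissue, a change in the number of cells of a type cannot be told apart from a change in RNA per cell.

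Levels differed widely between roles. Per kilobase of exon, Cdkn1a, which encodes the CDK inhibitor p21, had the highest mean level of all members in each group, with 124 (liraglutide) and 100 (PBS) CPM per kb in infarcted LV, against 67.1 (liraglutide) and 59.3 (PBS) CPM per kb in non-infarcted LV. The highest G1 gene was a D-type cyclin, Ccnd1 or Ccnd2, at 11.4 to 20.5 CPM per kb, and the highest replication gene was Pcna, the sliding clamp of DNA polymerase, at 13.1 to 18.3 CPM per kb. The 18 S to M phase genes were scarce, with a median of 0.211 to 0.465 CPM per kb over the groups. Of these 18, 7 (liraglutide) and 4 (PBS) had a mean under 1 CPM in infarcted LV, against 10 (liraglutide) and 9 (PBS) in non-infarcted LV. Low counts therefore limited what could be tested among them, and Ccnb1, Ccnb2, Aurkb, Bub1, Cenpe and Plk1, all of them mitotic, passed the filter on low counts in none of the 7 comparisons of 6 libraries.

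**Figure D1:**
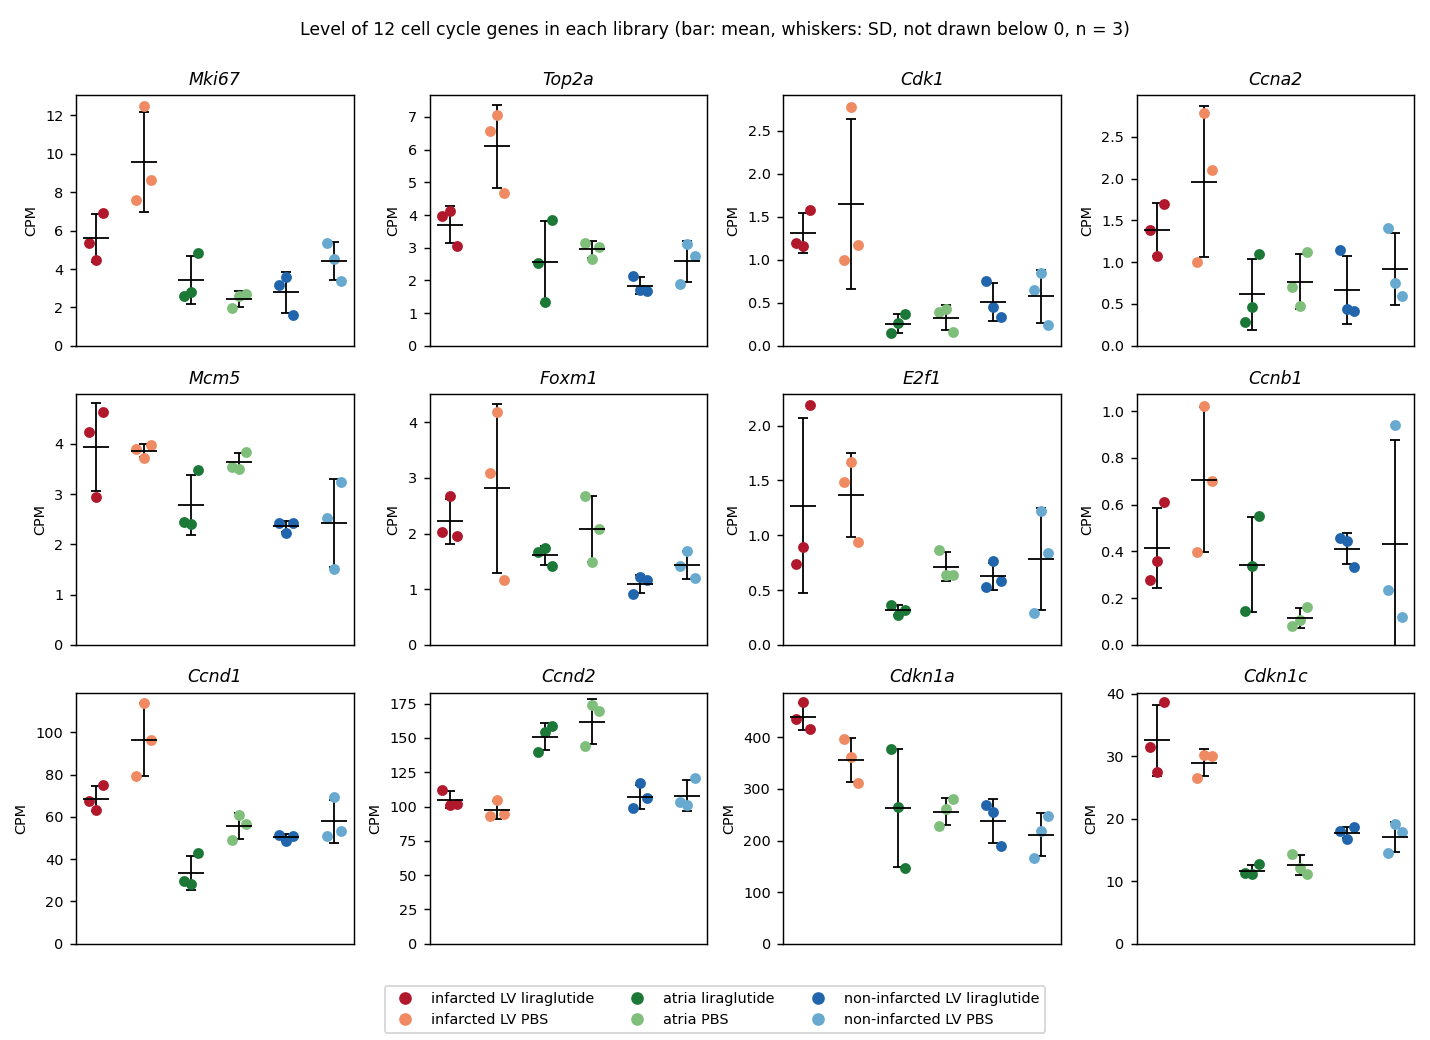
CPM of 12 of the 43 genes in each of the 18 libraries, 1 panel per gene with its own linear axis from 0. Points are libraries, horizontal bars are group means and whiskers are the SD of 3 libraries. Mki67, Top2a and Cdkn1c are highest in the infarcted LV groups, while Ccnd2 is highest in the atria.

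Promoters of the genes on which the results below turn are shown because genes of one cell cycle phase are known to share promoter elements. Sequences are from RefSeq, build GRCm38.p6, and hold the 250 bases before the start of each gene, read 5′ to 3′ on the gene's strand. Capitals mark 4 motifs searched on both strands: the cell cycle homology region or CHR, which the MuvB complex binds (TTTGAA or TTTAAA), the CCAAT box (CCAAT), an E2F-type element (TTTNNCGC) and a p53-type element (CATGNNNNNNCATG). The p53-type letters were chosen after the Cdkn1a sequence had been seen. Top2a (chr11:99024190-99024439), Mki67 (chr7:135716380-135716629), Cdk1 (chr10:69352913-69353162) and Mcm6 (chr1:128359706-128359955) lie on the minus strand, and Cdkn1a (chr17:29090729-29090978, 1 of its 2 annotated windows) lies on the plus strand.
Top2a: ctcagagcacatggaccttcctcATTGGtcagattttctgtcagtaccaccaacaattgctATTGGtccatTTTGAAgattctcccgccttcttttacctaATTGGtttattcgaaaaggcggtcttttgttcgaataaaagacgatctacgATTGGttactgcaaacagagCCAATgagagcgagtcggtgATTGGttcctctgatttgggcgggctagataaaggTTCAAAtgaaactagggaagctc
Mki67: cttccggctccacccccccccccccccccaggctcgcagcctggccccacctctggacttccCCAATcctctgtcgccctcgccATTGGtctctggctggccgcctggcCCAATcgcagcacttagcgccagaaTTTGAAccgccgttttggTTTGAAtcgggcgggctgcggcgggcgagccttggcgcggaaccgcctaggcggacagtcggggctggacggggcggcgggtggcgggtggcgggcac
Cdk1: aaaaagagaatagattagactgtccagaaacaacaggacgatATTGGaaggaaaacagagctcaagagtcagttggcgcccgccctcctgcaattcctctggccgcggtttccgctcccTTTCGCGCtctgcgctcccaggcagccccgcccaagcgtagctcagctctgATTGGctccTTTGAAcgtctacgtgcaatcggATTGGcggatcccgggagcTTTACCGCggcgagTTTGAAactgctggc
Mcm6: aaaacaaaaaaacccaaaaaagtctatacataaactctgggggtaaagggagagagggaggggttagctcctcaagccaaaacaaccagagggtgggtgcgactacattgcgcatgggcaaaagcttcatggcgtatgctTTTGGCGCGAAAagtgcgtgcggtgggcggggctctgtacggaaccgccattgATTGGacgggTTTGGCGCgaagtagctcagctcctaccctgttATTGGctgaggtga
Cdkn1a: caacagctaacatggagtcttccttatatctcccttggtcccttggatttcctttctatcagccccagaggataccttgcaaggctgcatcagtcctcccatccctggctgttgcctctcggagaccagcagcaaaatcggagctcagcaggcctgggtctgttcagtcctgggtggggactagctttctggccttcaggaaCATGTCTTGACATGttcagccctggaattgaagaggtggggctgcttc

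Top2a, the topoisomerase that untangles chromosomes, had 6 CCAAT boxes and 2 CHR matches in this window. In Mki67, which encodes the Ki-67 protein that coats mitotic chromosomes, 2 TTTGAA copies stood 98 and 116 bases before the start, counted at their first base, with 3 CCAAT boxes upstream. Cdk1, the kinase of mitotic entry, held all 3 cell cycle motifs: 2 CHR matches, 3 CCAAT boxes and 2 E2F-type matches. Mcm6, a subunit of the replicative helicase, held no CHR match but 3 E2F-type matches, 2 of which overlap each other, and 2 CCAAT boxes. Cdkn1a held none of these 3 motifs and a single p53-type match 48 bases before the start used here. That start lies at the upstream edge of the gene (chr17:29090976-29100727), and the distance to its other annotated start is not given.

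A RefSeq promoter was available for 33 of the 43 genes. Among the 14 S to M phase genes with one, 10 held a CHR match and 13 a CCAAT box, against 28.1% and 37.5% of 27025 genes. An E2F-type match stood in 3 of 10 replication genes and 1 of 14 S to M phase genes, against 4.94% of genes, and the p53-type match in Cdkn1a alone of the 33, against 0.57% of genes. These counts describe letters in a fixed window and were not tested.

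Infarcted LV was set against non-infarcted LV within each treatment, which asks where in the ventricle transcripts of proliferation were more abundant. In liraglutide hearts 18 of the 34 members tested rose in infarcted LV and 0 fell, where 49.8% of 13022 genes were called (27.3% higher and 22.4% lower). In PBS hearts 17 of 36 rose and 0 fell, where 47.4% of 12831 genes were called (25.7% higher and 21.7% lower). The share of members called was thus close to that of all genes, and the called members were all on the higher side. The median log2 fold change of tested members was 0.416 with liraglutide and 0.616 with PBS, against -0.0217 and -0.0215 over all tested genes. Of the tested members, 5 of 34 with liraglutide and 5 of 36 with PBS passed the filter on low counts through infarcted LV alone. This favoured a higher value there in advance, without forcing it. With liraglutide they were Cdk1, Tpx2, Bub1b, Ccna2 and Aurka, and with PBS Cdk1, Tpx2, Ccna2, Birc5 and Rrm2. Their values and calls are descriptions only. These counts and medians describe the tested members and not all 43.

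The members that rose were largely shared by the treatments, which use separate libraries. They shared 16, or 88.9% of those called with liraglutide and 94.1% of those called with PBS. The 16 include Cdk1 and Tpx2, which passed the filter on low counts through infarcted LV alone under both treatments. Their sharing was therefore favoured in advance. Mcm5 and Bub1b were called with liraglutide alone and Kif11 with PBS alone, and whether these differ between the treatments was tested only by the contrasts given at the end. With each library left out in turn, 10 of the 18 calls with liraglutide and 9 of the 17 with PBS held in all 6 fits. Ccnd1, Cdkn1c, Mcm3, Mcm4, Mcm6, Mki67 and Top2a, 7 genes, held in all fits of both treatments. The PBS count fell to 9 without replicate 2 of infarcted LV, the library with the highest Mki67, Cdk1 and Tpx2. DESeq2 called 11 members with liraglutide (38.9% of its genes), without Ccnd3, Foxm1, Mcm5, Tyms, Cdk1, Bub1b and Tpx2. With PBS it called 12 (36.7% of its genes), without Cdk6, Foxm1, Pcna, Rrm1, Cdk1 and Kif11 and with Bub1 (3.04, adjusted p = 0.00517). With all 18 libraries in the fit, the PBS count was 14, without Cdk6 (0.35, adjusted p = 0.0595), Cdkn1a (0.69, adjusted p = 0.0809) and Pcna (0.27, adjusted p = 0.104), and the liraglutide calls were without Tpx2 (0.92, adjusted p = 0.0506) and with Aurkb.

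**Figure D2:**
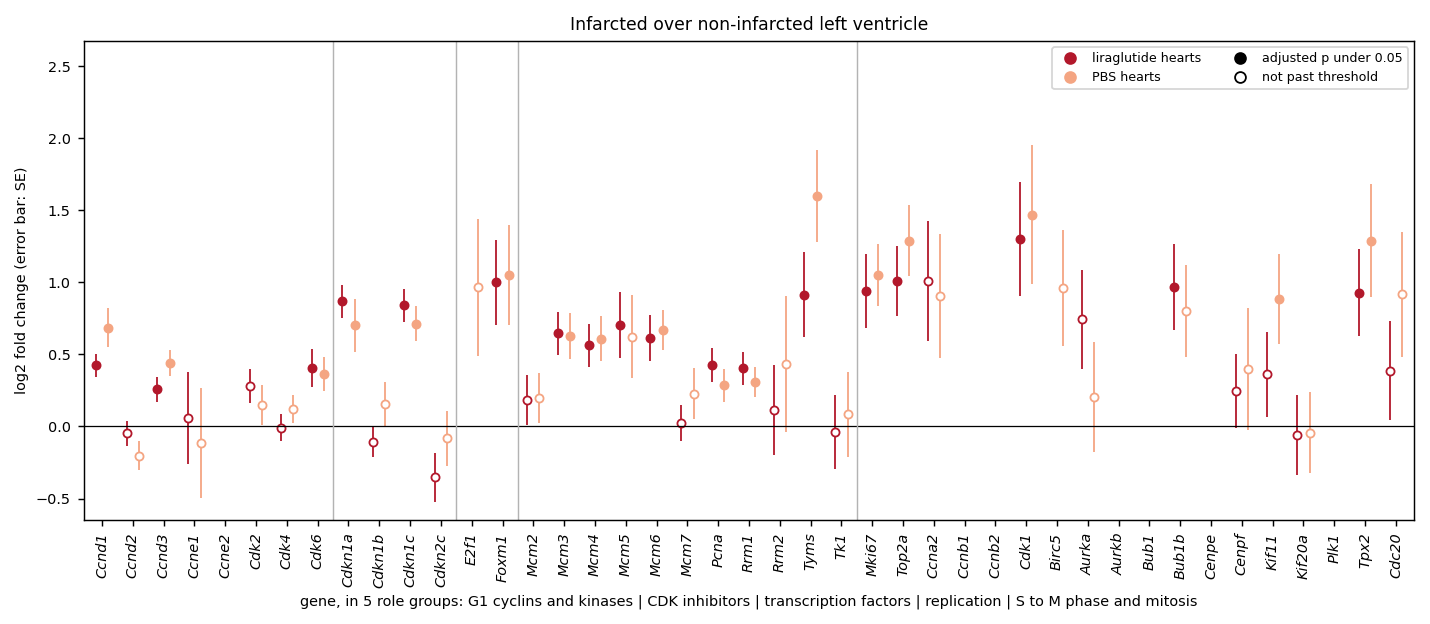
Log2 fold change of infarcted over non-infarcted LV for each tested member, in liraglutide hearts and in PBS hearts, ordered by role. Error bars are the SE derived from the F statistic. Filled points passed the adjusted p threshold of 0.05. All filled points, 18 with liraglutide and 17 with PBS, lie above 0. Members without a point were not tested.

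Gene coordinates are those of the GENCODE annotation on mm10. Among the genes of S to M phase, Mki67 (chr7:135689784-135716361) had 5.35, 4.47 and 6.94 CPM in infarcted LV with liraglutide, against 3.19, 3.57 and 1.58 CPM in non-infarcted LV with liraglutide. With PBS it had 7.57, 12.5 and 8.64 CPM in infarcted LV, against 5.35, 4.51 and 3.36 CPM in non-infarcted LV. The groups did not overlap under either treatment, and the log2 fold change was 0.94 (SE 0.256, edgeR adjusted p = 0.00691) with liraglutide and 1.05 (SE 0.214, edgeR adjusted p = 0.00097) with PBS. Top2a (chr11:98992943-99024189) gave a like picture, with 3.96, 4.11 and 3.04 CPM in infarcted LV with liraglutide, against 2.12, 1.72 and 1.67 CPM in non-infarcted LV. Its PBS values were 6.58, 7.05 and 4.67 CPM in infarcted LV, against 1.88, 3.1 and 2.76 CPM in non-infarcted LV, again without overlap. The log2 fold change of Top2a was 1.01 (SE 0.241, edgeR adjusted p = 0.00285) with liraglutide and 1.29 (SE 0.244, edgeR adjusted p = 0.000537) with PBS.

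Cdk1 (chr10:69335146-69352938), like Tpx2 below, passed the filter on low counts through infarcted LV alone under both treatments, which favoured a rise in advance. Cdk1 rose as well and was low everywhere. It stood at 1.2, 1.16 and 1.58 CPM in infarcted LV with liraglutide, against 0.758, 0.446 and 0.334 CPM in non-infarcted LV with liraglutide, and the log2 fold change was 1.30 (SE 0.396, edgeR adjusted p = 0.0131). With PBS it stood at 0.997, 2.78 and 1.17 CPM in infarcted LV, against 0.646, 0.847 and 0.24 CPM in non-infarcted LV, and the log2 fold change was 1.47 (SE 0.483, edgeR adjusted p = 0.0207). Its groups did not overlap, but replicate 2 of infarcted LV with PBS was far above the other 2, and without it the log2 fold change was 0.76 (adjusted p = 0.311). The call was also lost without replicate 1 of non-infarcted LV with PBS (1.53, adjusted p = 0.0599) and, in liraglutide hearts, without replicate 2 of non-infarcted LV (1.19, adjusted p = 0.0542). Tpx2, which activates Aurora A at the spindle, had 2.03, 1.88 and 2.07 CPM in infarcted LV with liraglutide, against 0.758, 1.21 and 1.08 CPM in non-infarcted LV (log2 fold change 0.93, SE 0.301, edgeR adjusted p = 0.0181). With PBS its values were 1.79, 5.01 and 2.34 CPM in infarcted LV, against 1.12, 1.69 and 0.959 CPM in non-infarcted LV (log2 fold change 1.29, SE 0.391, edgeR adjusted p = 0.0148). The same PBS library was the high one, and without it the log2 fold change of Tpx2 was 0.63 (adjusted p = 0.244). The call was also lost without replicate 1 of non-infarcted LV, with PBS (1.16, adjusted p = 0.0697) and with liraglutide (0.74, adjusted p = 0.083).

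Bub1b, a spindle checkpoint kinase, rose with liraglutide, with 2.21, 2.59 and 1.95 CPM in infarcted LV against 1.14, 1.4 and 0.834 CPM in non-infarcted LV (log2 fold change 0.97, SE 0.296, edgeR adjusted p = 0.0134). With liraglutide Bub1b passed the filter on low counts through infarcted LV alone, which favoured a rise in advance. This call was lost without replicate 2 of infarcted LV (0.83, adjusted p = 0.068) or replicate 3 of non-infarcted LV (0.81, adjusted p = 0.0526). With PBS, Bub1b had 2.09, 4.08 and 3.5 CPM in infarcted LV, against 1.76, 2.35 and 1.08 CPM in non-infarcted LV, with overlap, and fell just short of the threshold (log2 fold change 0.80, SE 0.321, edgeR adjusted p = 0.0508). It passed with the label number as a block (0.73, adjusted p = 0.0368), with no filter on low counts (0.79, adjusted p = 0.0379), and without replicate 1 of infarcted LV (1.07, adjusted p = 0.0201) or replicate 2 of non-infarcted LV (1.01, adjusted p = 0.0409). Kif11, the motor that separates spindle poles, rose with PBS, at 3.19, 3.25 and 1.64 CPM in infarcted LV against 1.82, 1.32 and 1.2 CPM in non-infarcted LV (log2 fold change 0.89, SE 0.312, edgeR adjusted p = 0.029), and the groups overlapped. Its call was lost without replicate 1 or 2 of infarcted LV or replicate 2 or 3 of non-infarcted LV (0.77 to 0.81, adjusted p = 0.0563 to 0.13).

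Cyclin A2, the partner of CDK2 and CDK1 in S and G2 phase, did not pass. Ccna2 (chr3:36564865-36572150) had 1.38, 1.07 and 1.7 CPM in infarcted LV with liraglutide, against 1.14, 0.446 and 0.417 CPM in non-infarcted LV (log2 fold change 1.01, SE 0.414, edgeR adjusted p = 0.0537). In PBS hearts its values were 0.997, 2.78 and 2.1 CPM in infarcted LV, against 1.41, 0.752 and 0.599 CPM in non-infarcted LV (log2 fold change 0.91, SE 0.428, edgeR adjusted p = 0.0944). The groups overlapped under both treatments. With the label number as a block, Ccna2 passed with liraglutide (1.01, adjusted p = 0.0495), as it did without replicate 1 of non-infarcted LV (1.60, adjusted p = 0.0109). With PBS it passed without replicate 1 of infarcted LV (1.28, adjusted p = 0.0259) or replicate 1 of non-infarcted LV (1.43, adjusted p = 0.0414).

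Cyclin B1, the partner of CDK1 at mitotic entry, was near the floor. Ccnb1 (chr13:100778650-100786570) was at 0.276, 0.358 and 0.609 CPM in infarcted LV with liraglutide and 0.399, 1.02 and 0.701 CPM in infarcted LV with PBS. In non-infarcted LV it was at 0.455, 0.446 and 0.334 CPM with liraglutide and 0.235, 0.941 and 0.12 CPM with PBS, and the ranges overlapped. Bub1, the checkpoint kinase of the kinetochore, was also not tested, yet its PBS values were 0.598, 1.58 and 1.64 CPM in infarcted LV, against 0.0588, 0.282 and 0.12 CPM in non-infarcted LV, with no overlap.

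Other mitotic genes were not past the threshold. Over all 6 libraries of a region, Cenpf, a large kinetochore protein, had a lowest, median and highest level of 6.77, 13 and 20.4 CPM in infarcted LV, against 6.71, 10.5 and 15.3 CPM in non-infarcted LV. The log2 fold change of Cenpf was 0.25 (adjusted p = 0.449) with liraglutide and 0.40 (adjusted p = 0.484) with PBS. It passed with PBS with the label number as a block (0.37, adjusted p = 0.0374) and with liraglutide without replicate 3 of non-infarcted LV (0.55, adjusted p = 0.0335). Kif20a, a motor of cytokinesis, had 1.38, 2.01 and 2.6 CPM in infarcted LV, against 1.5, 1.81 and 3 CPM in non-infarcted LV. Its log2 fold change was -0.06 with liraglutide and -0.04 with PBS. Birc5 (survivin), Aurka (Aurora A kinase) and Cdc20, the activator of the anaphase-promoting complex, lay higher on average in infarcted LV and did not pass. Birc5 was tested with PBS alone (0.96, adjusted p = 0.0613), the log2 fold change of Aurka was 0.74 with liraglutide and 0.20 with PBS, and that of Cdc20 0.39 with liraglutide and 0.92 (adjusted p = 0.0997) with PBS. With PBS, Cdc20 passed with the label number as a block (0.87, adjusted p = 0.0332), with no filter on low counts (0.90, adjusted p = 0.0429) and without replicate 3 of infarcted LV (1.21, adjusted p = 0.0128), and Birc5 without replicate 2 of non-infarcted LV (1.27, adjusted p = 0.0384). Aurkb, the Aurora kinase of the centromere, was not tested in the fits as reported. It passed with PBS without replicate 3 of non-infarcted LV (1.82, adjusted p = 0.0288), and with liraglutide with no filter (1.61, adjusted p = 0.0234) or when the fit held all 18 libraries (1.62, adjusted p = 0.0272).

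Summed over the 18 S to M phase genes, the level was 39.8, 36.8 and 45.2 CPM in infarcted LV with liraglutide, against 28.7, 23.3 and 28.6 CPM in non-infarcted LV with liraglutide. With PBS the sum was 55.8, 66.2 and 40.2 CPM in infarcted LV, against 36.2, 33.2 and 22.8 CPM in non-infarcted LV. In both treatments each infarcted library was above each non-infarcted one. Cenpf alone supplied a large part of the sum in the LV. Without it, an alternative added after the data were seen, the sums were 26.2, 26 and 29.5 CPM in infarcted LV against 17.8, 16.2 and 13.3 CPM in non-infarcted LV with liraglutide. With PBS they were 35.4, 53.7 and 33.4 CPM in infarcted LV against 23, 23.1 and 16.1 CPM in non-infarcted LV. Without Top2a and Mki67 the regions stayed separate with liraglutide and overlapped with PBS. Those PBS sums were 41.7, 46.6 and 26.9 CPM in infarcted LV against 29, 25.6 and 16.7 CPM in non-infarcted LV.

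**Figure D3:**
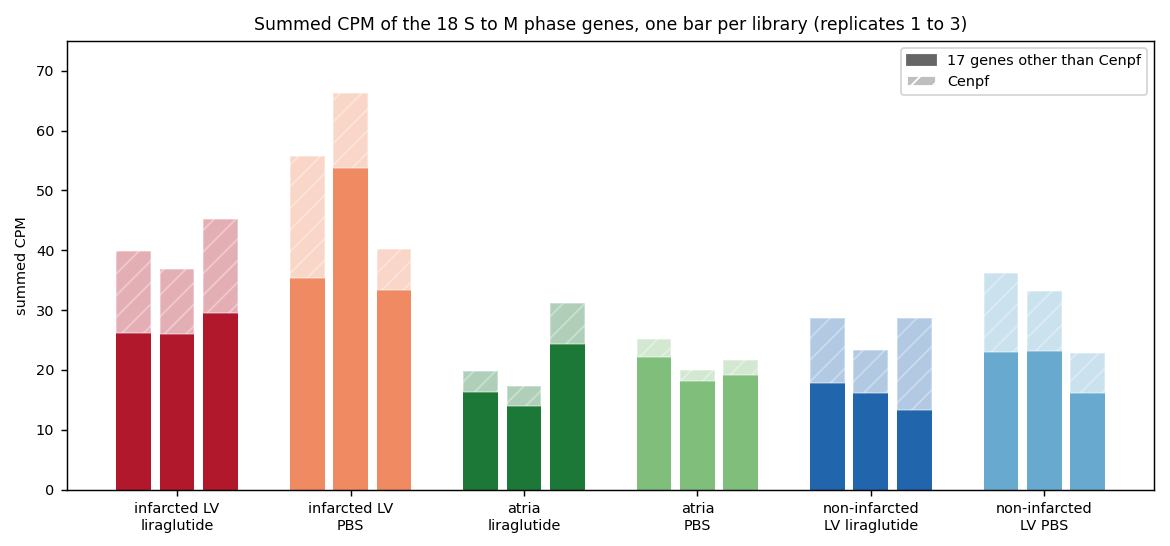
Summed CPM of the 18 S to M phase genes in each library, with Cenpf drawn as the hatched upper part of each bar. Bars of a group are replicates 1, 2 and 3 from left to right. Infarcted LV reaches 36.8 to 66.2 CPM, and non-infarcted LV 22.8 to 36.2 CPM, while Cenpf is a smaller part of the bar in the atria.

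Genes of DNA replication rose in 7 of 11 cases with liraglutide and 6 of 11 with PBS. Over all tested genes, 27.3% (liraglutide) and 25.7% (PBS) were called higher. The MCM genes encode the ring helicase that opens replication origins. Mcm3 (chr1:20802968-20820312) had 10.8, 9.66 and 12.4 CPM in infarcted LV with liraglutide, against 7.21, 7.26 and 6 CPM in non-infarcted LV (log2 fold change 0.65, SE 0.148, edgeR adjusted p = 0.00203). In PBS hearts it had 13.1, 10.1 and 10.7 CPM in infarcted LV, against 6.99, 7.52 and 6.83 CPM in non-infarcted LV (log2 fold change 0.63, SE 0.16, edgeR adjusted p = 0.00481). Both pairs of groups were fully separate. Mcm6 (chr1:128331590-128359664) had 14.6, 14.5 and 22.9 CPM in infarcted LV with liraglutide, against 10.4, 10.8 and 11.8 CPM in non-infarcted LV (log2 fold change 0.62, SE 0.16, edgeR adjusted p = 0.00507). The PBS values were 17.2, 16.4 and 17.5 CPM in infarcted LV, against 11.6, 11 and 7.79 CPM in non-infarcted LV (log2 fold change 0.67, SE 0.141, edgeR adjusted p = 0.00125). These groups did not overlap either.

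Mcm4 (chr16:15623897-15637400) had 16.5, 17 and 18.3 CPM in infarcted LV with liraglutide, against 13.2, 12.7 and 8.34 CPM in non-infarcted LV (log2 fold change 0.56, SE 0.149, edgeR adjusted p = 0.00557). Under PBS the values were 16, 15.6 and 11.9 CPM in infarcted LV, against 10.6, 9.88 and 7.31 CPM in non-infarcted LV (log2 fold change 0.61, SE 0.156, edgeR adjusted p = 0.00492). The groups were separate under both treatments. Mcm5 (chr8:75109569-75128439) had 4.24, 2.95 and 4.63 CPM in infarcted LV with liraglutide, against 2.43, 2.23 and 2.42 CPM in non-infarcted LV (log2 fold change 0.70, SE 0.228, edgeR adjusted p = 0.0183). With PBS, 3.89, 3.71 and 3.97 CPM in infarcted LV stood against 2.53, 1.5 and 3.24 CPM in non-infarcted LV (log2 fold change 0.62, SE 0.286, edgeR adjusted p = 0.0847), and the call came with the label number as a block (0.69, adjusted p = 0.0293) or without replicate 3 of non-infarcted LV (0.84, adjusted p = 0.0227). The liraglutide call of Mcm5 was lost without replicate 1 or 3 of infarcted LV or replicate 2 of non-infarcted LV (0.60 to 0.66, adjusted p = 0.0599 to 0.0648). The other ring subunits did not pass under either treatment, with a log2 fold change of 0.18 and 0.02 for Mcm2 and Mcm7 with liraglutide and 0.20 and 0.23 with PBS.

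Tyms, thymidylate synthase, had the largest log2 fold change among the members called with PBS. It had 2.67, 2.41 and 3.9 CPM in infarcted LV with liraglutide, against 1.67, 1.02 and 2 CPM in non-infarcted LV (log2 fold change 0.92, SE 0.297, edgeR adjusted p = 0.0183). The PBS libraries had 3.59, 5.85 and 2.57 CPM in infarcted LV, against 1.12, 1.6 and 1.44 CPM in non-infarcted LV (log2 fold change 1.60, SE 0.318, edgeR adjusted p = 0.000807). All infarcted libraries were above all non-infarcted ones, but the liraglutide call was lost without replicate 3 of infarcted LV (0.72, adjusted p = 0.0839) or replicate 2 of non-infarcted LV (0.66, adjusted p = 0.0981). Pcna (chr2:132249162-132253314) had 42.7, 41 and 48.5 CPM in infarcted LV with liraglutide, against 32.8, 37.6 and 25.8 CPM in non-infarcted LV (log2 fold change 0.43, SE 0.117, edgeR adjusted p = 0.00734). Its PBS values were 44.8, 38.2 and 35.7 CPM in infarcted LV, against 35.7, 31.3 and 27.1 CPM in non-infarcted LV (log2 fold change 0.29, SE 0.114, edgeR adjusted p = 0.0497). The PBS call was just past the threshold, with the lowest infarcted and the highest non-infarcted library almost level. It was lost without replicate 1 or 2 of infarcted LV or replicate 2 or 3 of non-infarcted LV (0.17 to 0.34, adjusted p = 0.0643 to 0.275). Rrm1, the large subunit of ribonucleotide reductase, rose by a log2 fold change of 0.40 with liraglutide and 0.31 with PBS. The PBS call was lost without replicate 1 or 2 of infarcted LV or replicate 2 of non-infarcted LV (0.28 to 0.29, adjusted p = 0.0775 to 0.0941). Its partner Rrm2 (0.12 with liraglutide and 0.43 with PBS) and thymidine kinase, Tk1 (-0.04 with liraglutide and 0.08 with PBS), did not pass.

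Of the G1 genes, 3 of 7 tested rose in each treatment, where 27.3% (liraglutide) and 25.7% (PBS) of all genes did. They were the same 3. Ccnd1 (chr7:144929931-144939925), the gene of cyclin D1, had 67.6, 63.3 and 75 CPM in infarcted LV with liraglutide, against 51.6, 48.5 and 50.8 CPM in non-infarcted LV (log2 fold change 0.42, SE 0.0808, edgeR adjusted p = 5e-04). With PBS it had 79.3, 114 and 96.5 CPM in infarcted LV, against 50.9, 69.6 and 53.3 CPM in non-infarcted LV (log2 fold change 0.69, SE 0.137, edgeR adjusted p = 0.00263). Its groups did not overlap. Ccnd3, the gene of cyclin D3, had 49.8, 46.8 and 47 CPM in infarcted LV with liraglutide, against 38.2, 38.7 and 41.4 CPM in non-infarcted LV (log2 fold change 0.26, SE 0.0858, edgeR adjusted p = 0.0206). With PBS the values were 54.8, 66.2 and 55.8 CPM in infarcted LV, against 41, 45.8 and 39.1 CPM in non-infarcted LV (log2 fold change 0.44, SE 0.0902, edgeR adjusted p = 0.000941). The groups were separate, but the liraglutide call was lost without replicate 1 or 2 of infarcted LV or replicate 1 or 2 of non-infarcted LV (0.22 to 0.25, adjusted p = 0.0554 to 0.0933). Cdk6, a kinase partner of the D-type cyclins, had 17.5, 14.7 and 21.2 CPM in infarcted LV with liraglutide, against 12.7, 14.3 and 12.3 CPM in non-infarcted LV (log2 fold change 0.41, SE 0.132, edgeR adjusted p = 0.0183). In PBS hearts its values were 18.7, 22.7 and 22.4 CPM in infarcted LV, against 15.2, 17.8 and 14.5 CPM in non-infarcted LV (log2 fold change 0.37, SE 0.118, edgeR adjusted p = 0.0185). The liraglutide call of Cdk6 was lost without replicate 3 of infarcted LV or replicate 1 or 3 of non-infarcted LV (0.29 to 0.37, adjusted p = 0.056 to 0.0948). Its PBS call was lost without replicate 2 of infarcted LV (0.32, adjusted p = 0.0959) or replicate 1 of non-infarcted LV (0.32, adjusted p = 0.0707).

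Cyclin D2 did not share this pattern. Ccnd2 (chr6:127125162-127152193) had 112, 101 and 102 CPM in infarcted LV with liraglutide, against 98.8, 117 and 106 CPM in non-infarcted LV (log2 fold change -0.05, SE 0.0845, edgeR adjusted p = 0.657). In PBS hearts it had 93.5, 105 and 94.4 CPM in infarcted LV, against 103, 101 and 121 CPM in non-infarcted LV (log2 fold change -0.20, SE 0.0982, edgeR adjusted p = 0.104). The groups overlapped, and without replicate 2 of non-infarcted LV with PBS the PBS difference passed (-0.28, adjusted p = 0.0426). The E-type cyclins, which act with CDK2 at the start of S phase, were low. Ccne1 had a lowest, median and highest level of 0.897, 1.3 and 2.6 CPM in infarcted LV, against 0.955, 1.42 and 1.94 CPM in non-infarcted LV, and Ccne2 was not tested here (without replicate 2 of infarcted LV with liraglutide it was, and was lower, at -1.87, adjusted p = 0.0457). The kinases Cdk2 (0.28 with liraglutide and 0.15 with PBS, on the log2 scale) and Cdk4 (-0.01 with liraglutide and 0.12 with PBS) did not pass.

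CDK inhibitors split into those that rose and those that did not pass. Cdkn1a (chr17:29090976-29100727) had 435, 469 and 417 CPM in infarcted LV with liraglutide, against 269, 256 and 190 CPM in non-infarcted LV (log2 fold change 0.87, SE 0.115, edgeR adjusted p = 2.71e-05). Under PBS the values were 396, 361 and 311 CPM in infarcted LV, against 166, 218 and 248 CPM in non-infarcted LV (log2 fold change 0.70, SE 0.183, edgeR adjusted p = 0.0195). No groups overlapped, yet the PBS call was lost with the label number as a block (0.72, adjusted p = 0.165). It was also lost without replicate 1 of infarcted LV (0.61, adjusted p = 0.0571), replicate 2 of infarcted LV (0.71, adjusted p = 0.0575) or replicate 2 of non-infarcted LV (0.69, adjusted p = 0.0602). Cdkn1c (chr7:143458339-143461050), the imprinted gene of p57, had 31.5, 27.5 and 38.7 CPM in infarcted LV with liraglutide, against 18, 16.8 and 18.7 CPM in non-infarcted LV (log2 fold change 0.84, SE 0.115, edgeR adjusted p = 2.69e-05). The PBS values were 26.5, 30.3 and 30.1 CPM in infarcted LV, against 14.5, 19.1 and 17.9 CPM in non-infarcted LV (log2 fold change 0.71, SE 0.122, edgeR adjusted p = 0.00023). All 6 infarcted libraries were above all 6 non-infarcted ones. Cdkn1b, the gene of p27, had a log2 fold change of -0.11 with liraglutide and 0.15 with PBS, and Cdkn2c, the gene of p18, one of -0.35 with liraglutide and -0.08 with PBS, none of which passed. Cdkn1b passed with PBS without replicate 1 of non-infarcted LV (0.37, adjusted p = 0.0307), and Cdkn2c with liraglutide without replicate 3 of non-infarcted LV (-0.47, adjusted p = 0.0401).

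Of the transcription factors, Foxm1 rose and E2f1 did not pass. Foxm1 (chr6:128362967-128376146), an activator of G2 and mitotic genes, had 2.03, 2.68 and 1.95 CPM in infarcted LV with liraglutide, against 0.91, 1.21 and 1.17 CPM in non-infarcted LV (log2 fold change 1.00, SE 0.296, edgeR adjusted p = 0.0108). The PBS libraries had 3.09, 4.18 and 1.17 CPM in infarcted LV, against 1.41, 1.69 and 1.2 CPM in non-infarcted LV (log2 fold change 1.05, SE 0.347, edgeR adjusted p = 0.021). The PBS groups overlapped, since replicate 3 of infarcted LV was low, and the PBS call was lost without replicate 1 (1.04, adjusted p = 0.0641) or replicate 2 (0.7, adjusted p = 0.195) of infarcted LV or replicate 1 of non-infarcted LV (1.01, adjusted p = 0.0737). The liraglutide call was lost without replicate 2 of infarcted LV (0.81, adjusted p = 0.0695). E2f1 (chr2:154559407-154569892), the activator of S phase genes, had 0.737, 0.894 and 2.19 CPM in infarcted LV with liraglutide, against 0.531, 0.764 and 0.584 CPM in non-infarcted LV, and was not tested there. Its PBS values were 1.49, 1.67 and 0.934 CPM in infarcted LV, against 0.294, 1.22 and 0.839 CPM in non-infarcted LV (log2 fold change 0.97, SE 0.475, edgeR adjusted p = 0.106), with overlap. Without replicate 2 of non-infarcted LV the PBS difference of E2f1 passed (1.48, adjusted p = 0.0416), and with liraglutide it was tested and passed without replicate 1 of infarcted LV (1.18, adjusted p = 0.0422).

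Markers of several cell types moved with these differences. The 8 fibroblast and myofibroblast markers summed to 1550 to 1860 CPM (liraglutide) and 1630 to 1940 CPM (PBS) in infarcted LV, against 637 to 810 CPM and 639 to 818 CPM in non-infarcted LV. The 6 endothelial markers summed to 1820 to 2150 CPM and 1960 to 2130 CPM in infarcted LV, against 1000 to 1030 CPM and 977 to 1070 CPM in non-infarcted LV. The 8 macrophage and monocyte markers summed to 283 to 351 CPM and 279 to 361 CPM in infarcted LV, against 137 to 175 CPM and 138 to 175 CPM in non-infarcted LV. Of these, Ccr2, Fcgr1, Ly6c2 and Spp1 reached at most 4.63 CPM in the LV, and their ranges overlapped between its regions. Lyz2, which supplied most of the sum (188 to 246 against 87.9 to 120 CPM), Csf1r, Adgre1 and Cd68 were higher in infarcted LV without overlap. In contrast, 8 cardiomyocyte markers summed to 69700 to 84900 CPM and 76200 to 81300 CPM in infarcted LV, against 101000 to 104000 CPM and 98600 to 107000 CPM in non-infarcted LV. The 6 neutrophil markers summed to 68.3 to 104 CPM (liraglutide) and 34.9 to 132 CPM (PBS) in infarcted LV, against 24.5 to 37.9 CPM and 22.5 to 41.1 CPM in non-infarcted LV. Of those tested, 5 of 5 were called higher with liraglutide and 0 of 5 with PBS, where 27.3% and 25.7% of all genes were. The PBS sums in infarcted LV were 34.9, 47.5 and 132 CPM and overlapped those with liraglutide. These calls do not show a difference between the treatments. The 4 epicardial and mesothelial markers summed to 29.1 to 34.8 CPM and 30.4 to 36.3 CPM in infarcted LV, against 7.84 to 10.8 CPM and 9.12 to 11 CPM in non-infarcted LV. Wt1 supplied most of that sum, at 25.1 to 30.4 CPM in infarcted LV against 7.24 to 9.47 CPM in non-infarcted LV. Upk3b, Msln and Lrrn4 reached at most 4.02 CPM in the LV, and their ranges overlapped. The 4 B cell markers were scarce and higher in infarcted LV as well, at 5.25 to 6.35 CPM and 3.71 to 7.08 CPM, against 0.637 to 1.44 CPM and 1.03 to 2.64 CPM in non-infarcted LV. The 5 T and NK cell markers summed to 1.1 to 1.52 CPM and 0.464 to 1.17 CPM in infarcted LV, against 0.446 to 1 CPM and 0.282 to 0.705 CPM in non-infarcted LV, and 3 red cell precursor genes were low (at most 0.557 CPM, with Hemgn at 0 in each library of infarcted LV with liraglutide). The 5 smooth muscle and pericyte markers summed to 2130 to 2640 CPM and 2100 to 2210 CPM in infarcted LV, against 1240 to 1360 CPM and 1120 to 1290 CPM in non-infarcted LV, and 3 Schwann cell markers to 9.12 to 13.4 CPM and 8.88 to 11 CPM, against 8.41 to 11 CPM and 5.99 to 9.4 CPM. The part of these cell types in the values of the 43 genes was not tested.

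Cell cycle genes outside the 43, in 4 further lists, were read in the same fits. These lists, too, were drawn up with earlier results of these data known. Over all tested genes, 27.3% were called higher and 22.4% lower with liraglutide, and 25.7% higher and 21.7% lower with PBS. Of other mitotic genes, 7 of 20 tested rose and 0 fell with liraglutide, and 11 of 21 rose and 1 fell with PBS, and the median log2 fold change was 0.497 and 0.753. Of those tested, 3 of 20 with liraglutide and 8 of 21 with PBS passed the filter on low counts through infarcted LV alone, which favoured a higher value there in advance. Kif23 and Ube2c with liraglutide were among them. Kif23, a motor of the central spindle, had 3.5, 2.15 and 4.75 CPM in infarcted LV with liraglutide, against 0.379, 0.955 and 0.5 CPM in non-infarcted LV (log2 fold change 2.38, SE 0.374, edgeR adjusted p = 9.61e-05). Its log2 fold change with PBS was 1.39 (adjusted p = 0.00117). The chromatin protein Hmgb2 rose by 0.72 with liraglutide and 0.79 with PBS, Ube2c, an enzyme of mitotic cyclin destruction, by 1.40 (adjusted p = 0.0104) with liraglutide, and the phosphatase Cdc25b by 0.74 (adjusted p = 0.00357) with PBS.

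Other replication genes did not move one way, with 1 of 16 higher and 3 lower with liraglutide and 2 of 16 higher and 2 lower with PBS (median -0.2 and 0.0447). Gmnn, which encodes geminin, the inhibitor of origin licensing, fell in infarcted LV. It had 28.4, 19.7 and 23.7 CPM in infarcted LV with liraglutide, against 40.4, 36.6 and 39 CPM in non-infarcted LV (log2 fold change -0.71, SE 0.112, edgeR adjusted p = 9.5e-05), and its log2 fold change with PBS was -0.60 (adjusted p = 0.00028). With liraglutide Cdc6, a licensing factor, rose by 1.64 (adjusted p = 0.00121), and Pole, a DNA polymerase subunit, fell with a log2 fold change of -0.88 (adjusted p = 0.00268). With PBS Pola1, a subunit of the primase complex, rose by 0.67 (adjusted p = 0.0066), and Uhrf1, which maintains DNA methylation, by 0.88 (adjusted p = 0.0325).

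Of other cell cycle regulators, 6 of 22 rose and 4 fell with liraglutide, and 7 of 22 rose and 2 fell with PBS (median 0.0704 and 0.0785). Myc, a growth-promoting transcription factor, had 105, 138 and 145 CPM in infarcted LV with liraglutide, against 26.5, 31 and 28.5 CPM in non-infarcted LV (log2 fold change 2.15, SE 0.121, edgeR adjusted p = 2.3e-08). With PBS it had 134, 107 and 113 CPM in infarcted LV, against 32.7, 32.1 and 33.7 CPM in non-infarcted LV (log2 fold change 1.80, SE 0.101, edgeR adjusted p = 1.07e-08). The regions were far apart under both treatments. Ccnl1, a cyclin of the splicing machinery, rose by 1.83 and 1.63 with liraglutide and PBS. Cdk7, the CDK-activating kinase, fell with liraglutide (log2 fold change -0.66, adjusted p = 0.000328), and Mycn rose with PBS (1.66, adjusted p = 7.8e-05).

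Of p53 targets and growth arrest genes, 9 of 14 rose and 2 fell with liraglutide and 10 of 14 rose and 2 fell with PBS (median 0.997 and 1.01). Gadd45b, a stress gene, had 98.2, 93.6 and 124 CPM in infarcted LV with liraglutide, against 13.8, 14.9 and 13.4 CPM in non-infarcted LV (log2 fold change 2.88, SE 0.107, edgeR adjusted p = 5.79e-11). Its relatives Gadd45g and Gadd45a rose by 2.69 and 1.73 with liraglutide, and Gadd45a by 1.48 (adjusted p = 1.95e-07) with PBS. With PBS the death receptor gene Eda2r also rose (1.44, adjusted p = 3.94e-05), and Trp53inp1 fell (log2 fold change -0.97, adjusted p = 1.76e-05).

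Atria were set against non-infarcted LV within each treatment. The non-infarcted LV libraries are the same as above, so the atrial and infarct comparisons are not independent. In liraglutide hearts 7 of 33 members tested rose in atria and 4 fell, where 47.5% of 13431 genes were called (24.6% higher and 22.9% lower). In PBS hearts 8 of 33 rose and 4 fell, where 51.8% of 13250 genes were called (26.3% higher and 25.6% lower). The share of members called was below that of all genes in both. The members tested were 33 in each, and 30 of them with liraglutide and 29 with PBS passed the filter on low counts through both tissues. The median log2 fold change was 0.238 with liraglutide and 0.254 with PBS, against 0.00821 and 0.00677 over all tested genes. Scaling by library totals in place of TMM moved the median of all genes by 0.128 in the PBS comparison. Ccnd2, Cdk6, Mcm3, Mcm4 and Mcm6 rose under both treatments, 71.4% of the higher calls with liraglutide and 62.5% of those with PBS. Cdkn1b, Cdkn1c and Cenpf fell under both, 75% of the lower calls of each. Without atrial replicate 3 with liraglutide, 9 members rose and 4 fell, with Pcna (0.33, adjusted p = 0.0393) and Tyms (0.82, adjusted p = 0.0461) added, and without atrial replicate 2 with PBS likewise 9 rose and 4 fell, with Cdc20 added.

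**Figure D4:**
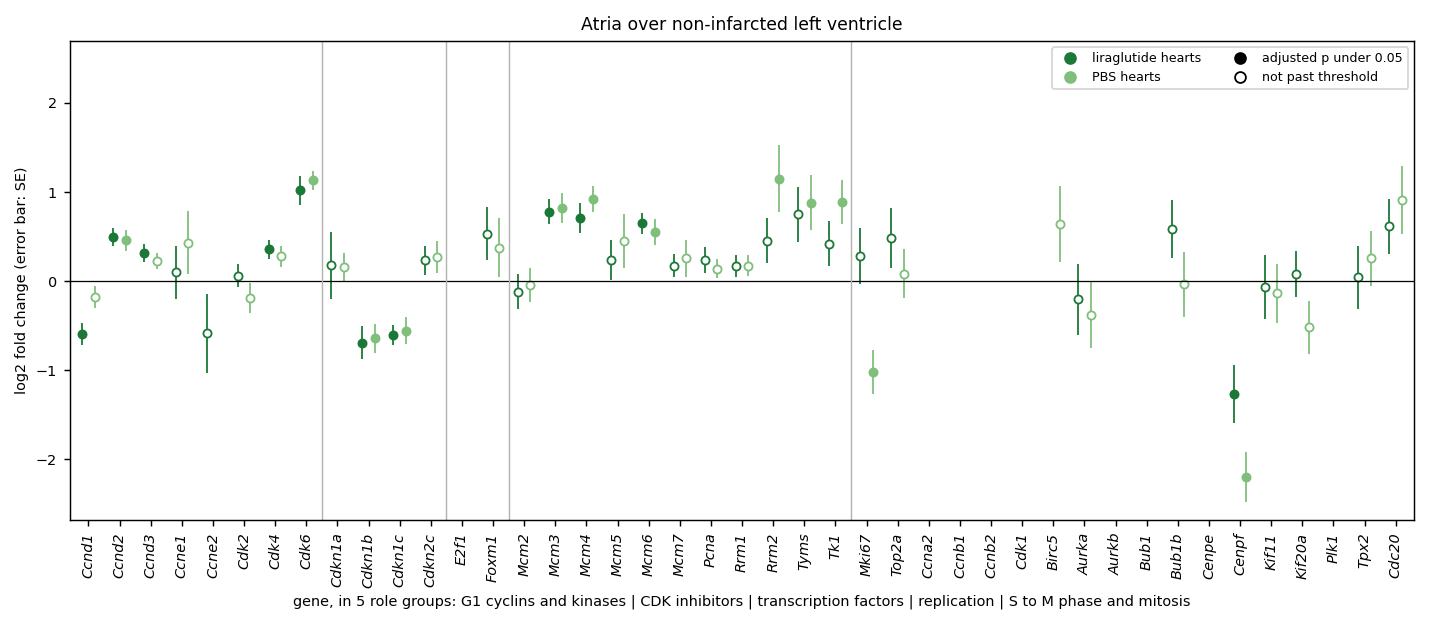
Log2 fold change of atria over non-infarcted LV for each tested member, in liraglutide hearts and in PBS hearts, ordered by role. Error bars are the SE derived from the F statistic. Filled points passed the adjusted p threshold of 0.05. Cdk6 and the MCM genes lie above 0 where they are called, and Cenpf lies lowest, at -1.27 with liraglutide and -2.20 with PBS.

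Among G1 genes, Cdk6 (chr5:3341485-3531008) had 21.1, 22.8 and 36.3 CPM in atria with liraglutide, against 12.7, 14.3 and 12.3 CPM in non-infarcted LV with liraglutide (log2 fold change 1.02, SE 0.161, edgeR adjusted p = 0.000657). In PBS hearts it had 36.1, 39.1 and 38 CPM in atria, against 15.2, 17.8 and 14.5 CPM in non-infarcted LV (log2 fold change 1.13, SE 0.108, edgeR adjusted p = 8.04e-06). No libraries overlapped. Ccnd2 had 140, 154 and 159 CPM in atria with liraglutide, against 98.8, 117 and 106 CPM in non-infarcted LV (log2 fold change 0.50, SE 0.1, edgeR adjusted p = 0.00261). The PBS values of Ccnd2 were 144, 174 and 170 CPM in atria, against 103, 101 and 121 CPM in non-infarcted LV (log2 fold change 0.46, SE 0.12, edgeR adjusted p = 0.00804). Each atrial library was above each LV library of its treatment. Ccnd1 had 29.6, 28.4 and 42.8 CPM in atria with liraglutide, against 51.6, 48.5 and 50.8 CPM in non-infarcted LV, and fell (log2 fold change -0.59, SE 0.12, edgeR adjusted p = 0.00271). Under PBS the values were 49.1, 61 and 56.8 CPM in atria, against 50.9, 69.6 and 53.3 CPM in non-infarcted LV, with overlap (log2 fold change -0.18, SE 0.123, edgeR adjusted p = 0.244). Cdk4 had 47.1, 46.8 and 46.7 CPM in atria with liraglutide, against 38.2, 34.6 and 37.2 CPM in non-infarcted LV (log2 fold change 0.36, SE 0.107, edgeR adjusted p = 0.0205), and Ccnd3 rose there too (0.31, adjusted p = 0.0283). The Cdk4 call was lost in each fit without a library other than atrial replicate 3 (0.31 to 0.37, adjusted p = 0.055 to 0.0979). The Ccnd3 call was lost without replicate 1 or 2 of either tissue (0.27 to 0.29, adjusted p = 0.0837 to 0.123) and in DESeq2 (0.31, adjusted p = 0.0519). It was also lost with the label number as a block (0.31, adjusted p = 0.0637), though the numbers did not pair these libraries. With PBS, Ccnd3 (0.22, adjusted p = 0.0613) and Cdk4 (0.28, adjusted p = 0.0695) did not pass, nor did Ccne1 or Cdk2 under either treatment or Ccne2 with liraglutide. With all 18 libraries in the fit the PBS differences of Ccnd3 (0.25, adjusted p = 0.0203) and Cdk4 (0.31, adjusted p = 0.0215) passed, and that of Cdk4 also without atrial replicate 3 (0.36, adjusted p = 0.0306).

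Of the CDK inhibitors, Cdkn1c had 11.3, 11.2 and 12.8 CPM in atria with liraglutide, against 18, 16.8 and 18.7 CPM in non-infarcted LV (log2 fold change -0.60, SE 0.116, edgeR adjusted p = 0.00202). The PBS libraries had 14.4, 12.2 and 11.2 CPM in atria, against 14.5, 19.1 and 17.9 CPM in non-infarcted LV (log2 fold change -0.56, SE 0.153, edgeR adjusted p = 0.0104). By group means, Cdkn1c was highest in infarcted LV and lowest in atria. Cdkn1b (chr6:134920401-134925513) had 15.3, 14.1 and 26.7 CPM in atria with liraglutide, against 28.4, 33.6 and 27.9 CPM in non-infarcted LV (log2 fold change -0.69, SE 0.183, edgeR adjusted p = 0.0119). In PBS hearts its values were 16.1, 18.2 and 17.1 CPM in atria, against 30.8, 19.6 and 22.7 CPM in non-infarcted LV (log2 fold change -0.64, SE 0.165, edgeR adjusted p = 0.00715). The groups did not overlap, and the high atrial value with liraglutide was replicate 3, the library with ventricular markers. The liraglutide call of Cdkn1b reached an adjusted p of 0.05 without replicate 2 of non-infarcted LV. Cdkn1a had 377, 265 and 146 CPM in atria with liraglutide and 228, 262 and 280 CPM in atria with PBS, overlapping the LV values of both treatments, with a log2 fold change of 0.18 with liraglutide and 0.15 with PBS. Without atrial replicate 1 with liraglutide it was -0.22, and without replicate 1 of non-infarcted LV with PBS it was -0.01. Neither Cdkn1a nor Cdkn2c passed.

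Among replication genes, Mcm3 had 11, 10.8 and 13.5 CPM in atria with liraglutide, against 7.21, 7.26 and 6 CPM in non-infarcted LV (log2 fold change 0.78, SE 0.144, edgeR adjusted p = 0.0016). With PBS it had 15.6, 14.8 and 10.2 CPM in atria, against 6.99, 7.52 and 6.83 CPM in non-infarcted LV (log2 fold change 0.82, SE 0.168, edgeR adjusted p = 0.00188). No libraries overlapped. Mcm4 had 16.7, 17.9 and 21.6 CPM in atria with liraglutide, against 13.2, 12.7 and 8.34 CPM in non-infarcted LV (log2 fold change 0.71, SE 0.166, edgeR adjusted p = 0.00615). The PBS values of Mcm4 were 19.8, 20.5 and 17.4 CPM in atria, against 10.6, 9.88 and 7.31 CPM in non-infarcted LV (log2 fold change 0.92, SE 0.144, edgeR adjusted p = 0.000295). Mcm6 likewise rose, at 15.9, 16.1 and 19.9 CPM in atria with liraglutide and 16.3, 16.2 and 16.8 CPM in atria with PBS, against 10.4, 10.8 and 11.8 CPM (liraglutide) and 11.6, 11 and 7.79 CPM (PBS) in non-infarcted LV. Its log2 fold change was 0.65 (SE 0.122, edgeR adjusted p = 0.00176) with liraglutide and 0.55 (SE 0.15, edgeR adjusted p = 0.0099) with PBS. Mcm5 had 2.45, 2.41 and 3.48 CPM in atria with liraglutide and 3.54, 3.5 and 3.83 CPM in atria with PBS and did not pass (0.24 with liraglutide and 0.45 with PBS), nor did Mcm2, Mcm7, Pcna or Rrm1. With PBS Tk1, thymidine kinase, had 6.06, 4.19 and 3.99 CPM in atria, against 2.29, 2.63 and 2.16 CPM in non-infarcted LV (log2 fold change 0.89, SE 0.248, edgeR adjusted p = 0.011). Rrm2 (1.15, adjusted p = 0.0267) and Tyms (0.88, adjusted p = 0.0335) rose with PBS as well. Rrm2 passed the filter on low counts with PBS through atria alone, which favoured a rise in advance. The Rrm2 call was lost without replicate 3 of atria or replicate 1 or 3 of non-infarcted LV (0.86 to 1.06, adjusted p = 0.051 to 0.105). The Tyms call was lost in each fit without a library other than atrial replicate 2 (0.71 to 0.98, adjusted p = 0.0551 to 0.144) and in DESeq2 (0.89, adjusted p = 0.104), while Tyms passed with liraglutide with all 18 libraries in the fit (0.78, adjusted p = 0.0422).

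S to M phase genes did not follow the MCM genes, and 0 of those tested rose in atria, while 1, Cdc20, passed with PBS under 2 of the alternatives given below. Cenpf (chr1:189640606-189688086) had 3.39, 3.41 and 6.96 CPM in atria with liraglutide, against 10.9, 7.13 and 15.3 CPM in non-infarcted LV (log2 fold change -1.27, SE 0.327, edgeR adjusted p = 0.0117). In PBS hearts it had 3.07, 1.86 and 2.4 CPM in atria, against 13.2, 10.1 and 6.71 CPM in non-infarcted LV (log2 fold change -2.20, SE 0.281, edgeR adjusted p = 7.24e-05). The atria were lower without overlap, and the highest of them was replicate 3 with liraglutide. Mki67 had 2.6, 2.81 and 4.85 CPM in atria with liraglutide, against 3.19, 3.57 and 1.58 CPM in non-infarcted LV (log2 fold change 0.28, SE 0.316, edgeR adjusted p = 0.488), with overlap. With PBS Mki67 had 1.97, 2.6 and 2.71 CPM in atria, against 5.35, 4.51 and 3.36 CPM in non-infarcted LV, and fell (log2 fold change -1.02, SE 0.251, edgeR adjusted p = 0.00547). The atrial range of Top2a overlapped that of the LV, with 2.53, 1.34 and 3.84 CPM in atria with liraglutide and 3.15, 2.65 and 3.03 CPM in atria with PBS (0.48 with liraglutide and 0.08 with PBS, and -0.15 without replicate 1 of non-infarcted LV with PBS). Birc5, Aurka, Bub1b, Kif11, Kif20a, Tpx2 and Cdc20 did not pass, with log2 fold changes between -0.52 and 0.91 where tested. The highest was that of Cdc20 with PBS (adjusted p = 0.0691), which passed with the label number as a block (0.94, adjusted p = 0.0264) and without atrial replicate 2 (1.17, adjusted p = 0.029). Cdk1, Ccna2 and Ccnb1 were too low to be tested here. Cdk1 was at 0.144, 0.268 and 0.366 CPM in atria with liraglutide and 0.394, 0.425 and 0.16 CPM in atria with PBS, Ccna2 at 0.289, 0.468 and 1.1 CPM with liraglutide and 0.709, 0.478 and 1.12 CPM with PBS, and Ccnb1 at 0.144, 0.335 and 0.549 CPM with liraglutide and 0.0787, 0.106 and 0.16 CPM with PBS.

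The transcription factors gave no call in atria. Foxm1 was at 1.66, 1.74 and 1.42 CPM in atria with liraglutide and 2.68, 1.49 and 2.08 CPM in atria with PBS (log2 fold change 0.53 with liraglutide and 0.38 with PBS). E2f1, which was not tested, was at 0.361, 0.268 and 0.32 CPM in atria with liraglutide and 0.866, 0.637 and 0.639 CPM in atria with PBS. The summed level of the 18 S to M phase genes was 19.8, 17.3 and 31.2 CPM in atria with liraglutide, against 28.7, 23.3 and 28.6 CPM in non-infarcted LV with liraglutide. It was 25.2, 20 and 21.6 CPM in atria with PBS, against 36.2, 33.2 and 22.8 CPM in non-infarcted LV with PBS. Without Cenpf the atrial sums were 16.4, 13.9 and 24.3 CPM with liraglutide and 22.1, 18.1 and 19.2 CPM with PBS, against 17.8, 16.2 and 13.3 CPM (liraglutide) and 23, 23.1 and 16.1 CPM (PBS) in non-infarcted LV. The ranges overlapped, and replicate 3 with liraglutide, the library with ventricular markers, lay above the LV libraries of its treatment.

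Outside the 43, Gmnn had the smallest p between atria and LV among other replication genes. It had 3.54, 3.21 and 7.6 CPM in atria with liraglutide, against 40.4, 36.6 and 39 CPM in non-infarcted LV (log2 fold change -3.00, SE 0.235, edgeR adjusted p = 1.57e-05), and 3.7, 4.51 and 3.19 CPM in atria with PBS, against 34.7, 38.2 and 34.8 CPM in non-infarcted LV (log2 fold change -3.32, SE 0.136, edgeR adjusted p = 1.98e-08). All 6 atrial libraries were far below the LV. Cdc6 rose by 1.51 with liraglutide and 1.52 with PBS, Pole fell with liraglutide (-0.93, adjusted p = 0.00943), and Dut, which clears dUTP, fell with PBS (-0.55, adjusted p = 0.00837). In that list 1 of 16 rose and 2 fell with liraglutide, and 2 of 16 rose and 3 fell with PBS (median log2 fold change -0.23 and -0.292). Over all tested genes of these fits, 24.6% rose and 22.9% fell with liraglutide, and 26.3% rose and 25.6% fell with PBS. Of other mitotic genes, 1 of 17 rose and 1 fell with liraglutide, and 0 of 17 rose and 2 fell with PBS (median 0.11 and -0.06). Stmn1, a microtubule destabiliser, fell under both treatments (log2 fold change -0.95, adjusted p = 0.00204 with liraglutide and -0.65, adjusted p = 0.0296 with PBS). Cenpa, the centromeric histone, rose with liraglutide (0.87, adjusted p = 0.0246), and Pttg1, the gene of securin, fell with PBS (-0.26, adjusted p = 0.0415).

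Of other regulators, 8 of 21 rose and 7 fell in atria with liraglutide, and 8 of 22 rose and 7 fell with PBS (median 0.0884 and 0.13). Myc rose under both (1.58, adjusted p = 0.00056 with liraglutide and 0.66, adjusted p = 0.000155 with PBS), and Ccnh, the cyclin of CDK7, fell under both (-0.88, adjusted p = 0.00016 with liraglutide and -0.78, adjusted p = 0.00058 with PBS). Ccnl1 rose with liraglutide (0.66, adjusted p = 0.000736) and Cdkn2d, the gene of p19, with PBS (0.77, adjusted p = 0.000295). Of p53 targets and growth arrest genes, 5 of 14 rose and 2 fell with liraglutide, and 4 of 14 rose and 4 fell with PBS (median 0.383 and 0.156). Ccng1, a p53 target, fell under both (-0.84, adjusted p = 0.000133 with liraglutide and -0.94, adjusted p = 3.46e-05 with PBS). Gadd45g (2.64, adjusted p = 0.000118) and the antiproliferative gene Btg2 (0.98, adjusted p = 0.00311) rose with liraglutide. With PBS Sesn2 rose (1.00, adjusted p = 0.00157) and Gadd45a fell (-0.75, adjusted p = 0.00286).

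Atria and non-infarcted LV also differed in cell type markers. The 6 endothelial markers summed to 1210 to 1340 CPM (liraglutide) and 1400 to 1510 CPM (PBS) in atria, against 1000 to 1030 CPM and 977 to 1070 CPM in non-infarcted LV. They did not move one way over the libraries of both treatments. Vwf (324 to 494 against 68 to 117 CPM) and Pecam1 (384 to 492 against 225 to 259 CPM) were higher in atria. Kdr (63.6 to 82.3 against 192 to 239 CPM), Cdh5 (181 to 205 against 214 to 238 CPM) and Egfl7 (51.1 to 63.2 against 64.6 to 78.4 CPM) were lower, and Tie1 overlapped. The 6 neutrophil markers summed to 75.1 to 366 CPM and 197 to 670 CPM in atria, against 24.5 to 37.9 CPM and 22.5 to 41.1 CPM in non-infarcted LV. The 4 epicardial and mesothelial markers summed to 105 to 184 CPM and 143 to 221 CPM in atria, against 7.84 to 10.8 CPM and 9.12 to 11 CPM in non-infarcted LV. Of these, Wt1 alone overlapped, at 6.71 to 12.6 CPM in atria against 7.24 to 9.47 CPM in non-infarcted LV. The 8 macrophage and monocyte markers summed to 117 to 425 CPM and 265 to 503 CPM in atria, against 137 to 175 CPM and 138 to 175 CPM in non-infarcted LV, and the 8 fibroblast markers to 614 to 1320 CPM and 747 to 1120 CPM, against 637 to 810 CPM and 639 to 818 CPM. Lower in atria were the sums of the 5 smooth muscle and pericyte markers, at 213 to 479 CPM and 232 to 258 CPM, against 1240 to 1360 CPM and 1120 to 1290 CPM in non-infarcted LV, and of the 8 cardiomyocyte markers, at 81200 to 87300 CPM and 72600 to 84600 CPM, against 101000 to 104000 CPM and 98600 to 107000 CPM. By medians over both treatments, Mb (6050 against 15400 CPM) and Pln (1250 against 7000 CPM) were far lower in atria. Actc1, Tnnt2, Tnni3 and Ttn were lower as well, whereas Myh6 (44800 against 44300 CPM) was level and Ryr2 (2650 against 2220 CPM) higher. The part of these cell types in the values of the cell cycle genes was not tested.

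Liraglutide was set against PBS within each region, which is the treatment comparison of the study. In the edgeR fits as reported, 0 of the members tested passed the threshold in any region. In infarcted LV 0 of 36 members tested passed, where 0 of 12988 genes did (0% called), and 7 members had an unadjusted p under 0.05, where 5.24% of genes had. DESeq2 called 1 gene (0.00551%) and 0 members there. In atria 0 of 34 passed, where 1 of 13530 genes did (0.00739% called), and 4 members had an unadjusted p under 0.05, where 6.87% of genes had. DESeq2 called 118 genes (0.833%) there, with Ccnd1 among them, and edgeR 105 genes without replicate 3 with liraglutide. In non-infarcted LV 0 of 33 passed, where 0 of 12919 genes did (0% called), and 3 members had an unadjusted p under 0.05, where 4.34% of genes had. DESeq2 called 2 genes (0.0109%) and 0 members there.

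**Figure D5:**
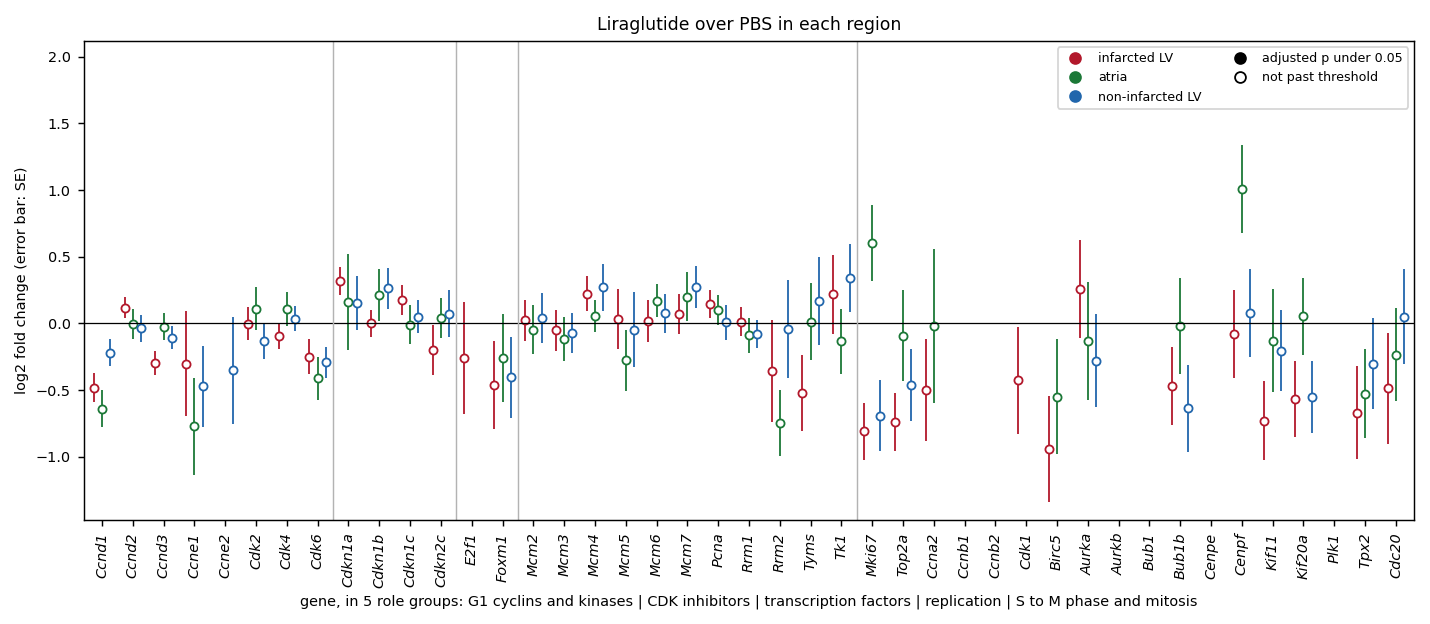
Log2 fold change of liraglutide over PBS for each tested member in infarcted LV, atria and non-infarcted LV, ordered by role. Error bars are the SE derived from the F statistic. No point is filled, since 0 members passed the adjusted p threshold of 0.05. In infarcted LV 11 of the 12 tested S to M phase genes lie below 0, except Aurka, where the median over all tested genes is 0.00218. Birc5 passed the filter on low counts there through PBS alone, which favours a value below 0 in advance. Aurka and Cdc20 passed it through liraglutide alone, which favours the other side.

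In infarcted LV, Ccnd1 had the smallest p of the members. It had 67.6, 63.3 and 75 CPM with liraglutide, against 79.3, 114 and 96.5 CPM with PBS, without overlap (log2 fold change -0.48, SE 0.107, edgeR unadjusted p = 0.000452, adjusted p = 0.403). Mki67 had 5.35, 4.47 and 6.94 CPM with liraglutide, against 7.57, 12.5 and 8.64 CPM with PBS, also without overlap (log2 fold change -0.81, SE 0.211, edgeR unadjusted p = 0.00155, adjusted p = 0.558). Both were called with no filter on low counts, where 35 genes passed (adjusted p = 0.00475 for Ccnd1 and 0.0324 for Mki67). Top2a had 3.96, 4.11 and 3.04 CPM with liraglutide, against 6.58, 7.05 and 4.67 CPM with PBS (log2 fold change -0.74, SE 0.216, edgeR unadjusted p = 0.00361, adjusted p = 0.624). The inhibitor gene Cdkn1a lay the other way, at 435, 469 and 417 CPM with liraglutide, against 396, 361 and 311 CPM with PBS (log2 fold change 0.32, SE 0.102, edgeR unadjusted p = 0.00689, adjusted p = 0.739). Neither gene's groups overlapped.

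Ccnd3 had 49.8, 46.8 and 47 CPM with liraglutide, against 54.8, 66.2 and 55.8 CPM with PBS in infarcted LV (log2 fold change -0.29, SE 0.0904, edgeR unadjusted p = 0.00534, adjusted p = 0.7). Kif11 had 1.94, 1.52 and 1.7 CPM with liraglutide, against 3.19, 3.25 and 1.64 CPM with PBS (log2 fold change -0.73, SE 0.297, edgeR unadjusted p = 0.0263, adjusted p = 0.932), and its groups overlapped. Birc5, the seventh, had a log2 fold change of -0.94 (SE 0.399, edgeR unadjusted p = 0.0321, adjusted p = 0.939). It passed the filter on low counts through the PBS group alone, which favoured a lower value with liraglutide in advance. By role, the median log2 fold change was -0.532 over 12 S to M phase genes, 0.0225 over 11 replication genes, -0.249 over 7 G1 genes and 0.0904 over 4 inhibitors, against 0.00218 over all tested genes. These medians are descriptions, and genes of one phase are not independent of each other. Summed over the 18 S to M phase genes, infarcted LV had 39.8, 36.8 and 45.2 CPM with liraglutide, against 55.8, 66.2 and 40.2 CPM with PBS, and the groups overlapped. Without Cenpf, an alternative added after the data were seen, the sums did not overlap. They were 26.2, 26 and 29.5 CPM with liraglutide, against 35.4, 53.7 and 33.4 CPM with PBS. Without Top2a and Mki67 the groups overlapped, at 30.5, 28.2 and 35.2 CPM with liraglutide, against 41.7, 46.6 and 26.9 CPM with PBS. Scaled by TMM, the sums over all 18 genes overlapped too. They were 38.9, 37.6 and 43.6 CPM with liraglutide, against 55.8, 64 and 39.2 CPM with PBS.

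Cell type markers in infarcted LV were also read by treatment. Fibroblast markers summed to 1550 to 1860 CPM with liraglutide, against 1630 to 1940 CPM with PBS. Macrophage and monocyte markers summed to 283 to 351 CPM with liraglutide, against 279 to 361 CPM with PBS, and endothelial markers to 1820 to 2150 CPM with liraglutide, against 1960 to 2130 CPM with PBS. Neutrophil markers summed to 68.3 to 104 CPM with liraglutide, against 34.9 to 132 CPM with PBS. All 4 pairs of ranges overlapped.

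In atria, Ccnd1 again had the smallest p of the members. It had 29.6, 28.4 and 42.8 CPM with liraglutide, against 49.1, 61 and 56.8 CPM with PBS, without overlap (log2 fold change -0.64, SE 0.139, edgeR unadjusted p = 0.00133, adjusted p = 0.376). It passed in DESeq2 (-0.64, adjusted p = 0.0275), with all 18 libraries in the fit (-0.63, adjusted p = 0.0283) and without replicate 3 with liraglutide (-0.77, adjusted p = 0.0268), the library with ventricular markers. Over its 6 fits with a library left out, the adjusted p ran from 0.0268 to 1. Without that library and PBS replicate 2 together, 0 members passed. Cenpf had 3.39, 3.41 and 6.96 CPM with liraglutide, against 3.07, 1.86 and 2.4 CPM with PBS (log2 fold change 1.01, SE 0.328, edgeR unadjusted p = 0.0133, adjusted p = 0.556), and Cenpf is also a gene that was higher in LV than in atria. Rrm2 had 2.82, 3.08 and 2.84 CPM with liraglutide, against 4.33, 4.94 and 6.71 CPM with PBS (log2 fold change -0.75, SE 0.249, edgeR unadjusted p = 0.015, adjusted p = 0.578). Neither gene's groups overlapped.

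Cdk6 had 21.1, 22.8 and 36.3 CPM with liraglutide, against 36.1, 39.1 and 38 CPM with PBS in atria (log2 fold change -0.41, SE 0.159, edgeR unadjusted p = 0.0298, adjusted p = 0.657). Of the liraglutide libraries replicate 3 alone lay within the PBS range, and without that library it passed (-0.61, adjusted p = 0.0489). Ccne1 had 1.23, 1.2 and 1.6 CPM with liraglutide, against 2.13, 3.66 and 1.28 CPM with PBS (log2 fold change -0.77, SE 0.362, edgeR unadjusted p = 0.062, adjusted p = 0.747). Mki67 had 2.6, 2.81 and 4.85 CPM with liraglutide, against 1.97, 2.6 and 2.71 CPM with PBS (log2 fold change 0.60, SE 0.285, edgeR unadjusted p = 0.064, adjusted p = 0.754). Both of these overlapped between the treatments. The ventricular marker sum was 588, 77.3 and 1580 CPM in atria with liraglutide, against 124, 61.3 and 71.9 CPM in atria with PBS, and the neutrophil marker sum 121, 75.1 and 366 CPM with liraglutide, against 197, 670 and 542 CPM with PBS. The part of either in these values was not tested.

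In non-infarcted LV, Mki67 had 3.19, 3.57 and 1.58 CPM with liraglutide, against 5.35, 4.51 and 3.36 CPM with PBS (log2 fold change -0.69, SE 0.265, edgeR unadjusted p = 0.0216, adjusted p = 0.999). Cdk6 had 12.7, 14.3 and 12.3 CPM with liraglutide, against 15.2, 17.8 and 14.5 CPM with PBS (log2 fold change -0.29, SE 0.117, edgeR unadjusted p = 0.0268, adjusted p = 0.999). Ccnd1 had 51.6, 48.5 and 50.8 CPM with liraglutide, against 50.9, 69.6 and 53.3 CPM with PBS (log2 fold change -0.22, SE 0.102, edgeR unadjusted p = 0.0492, adjusted p = 0.999). Of these, Cdk6 alone had groups that did not overlap. The next were Kif20a (1.82, 1.59 and 1.5 CPM with liraglutide, against 3, 2.07 and 1.8 CPM with PBS), Bub1b (1.14, 1.4 and 0.834 CPM with liraglutide, against 1.76, 2.35 and 1.08 CPM with PBS) and Mcm7 (11.1, 11.4 and 10 CPM with liraglutide, against 10.1, 9.78 and 6.23 CPM with PBS), each with overlap and an unadjusted p above 0.05.

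Contrasts of the liraglutide effect between regions, in a fit of all 18 libraries, called 0 of 13920 genes (0% called) and 0 of 40 members tested, both for infarcted minus non-infarcted LV and for atria minus non-infarcted LV. For the infarcted contrast 174 genes (1.25%) and 0 members had an unadjusted p under 0.05, and DESeq2 called 0 genes. For the atrial contrast 750 genes (5.39%) and 2 members had one, and DESeq2 called 58 genes (0.758%) and 0 of the 10 members to which it gave an adjusted p. Those members were Mki67 (1.32, SE 0.403, edgeR unadjusted p = 0.00389, adjusted p = 0.505) and Ccnd1 (-0.40, SE 0.179, edgeR unadjusted p = 0.0362, adjusted p = 0.875), on the log2 scale. Mki67 was on average higher with liraglutide in atria and lower with liraglutide in both parts of the LV, and the difference did not pass adjustment. Whether the higher Mki67 and Top2a in infarcted LV differed in size between treatments is the same contrast, which gave -0.10 (SE 0.388, edgeR unadjusted p = 0.801, adjusted p = 1) for Mki67 and -0.25 (SE 0.414, edgeR unadjusted p = 0.557, adjusted p = 1) for Top2a.

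In the edgeR fits as reported, none of the 4 further lists held a gene that passed between liraglutide and PBS in any region (0 calls in each). In atria, the smallest p among other regulators was that of E2f8, a repressor of E2F targets, which had 8.66, 5.29 and 3.71 CPM with liraglutide, against 1.02, 0.212 and 1.6 CPM with PBS, without overlap (log2 fold change 2.99, SE 0.649, edgeR unadjusted p = 0.0019, adjusted p = 0.403). Among p53 targets it was Plk2, which had 91.2, 65.7 and 42.4 CPM with liraglutide, against 24.3, 20.2 and 26.8 CPM with PBS (log2 fold change 1.61, SE 0.327, edgeR unadjusted p = 0.00171, adjusted p = 0.399). Myc followed in atria, at 107, 81 and 66 CPM with liraglutide, against 58.3, 56.4 and 55.4 CPM with PBS (log2 fold change 0.69, SE 0.204, edgeR unadjusted p = 0.0088, adjusted p = 0.522). In infarcted LV the smallest was that of Uhrf1, at 1.75, 2.15 and 1.1 CPM with liraglutide, against 4.29, 3.34 and 2.1 CPM with PBS (log2 fold change -0.99, SE 0.318, edgeR unadjusted p = 0.00696, adjusted p = 0.74). In non-infarcted LV it was that of Cenpa (log2 fold change -0.24, SE 0.0955, edgeR unadjusted p = 0.0262, adjusted p = 0.999).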

How the data were processed

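Poly(A) RNA of 18 libraries was sequenced from a stranded TruSeq preparation, per the labels' protocols. The authors deposited a table of raw counts per gene symbol. STAR 2.7.9a, DESeq2 (with no version) and the mm10 build are named in the submitters' processing notes. How reads were counted, on which strand and over which annotation is not given in the sources used here. Reads of a gene and an antisense or near-identical partner may therefore not be separated.

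Counts were used as deposited. CPM were computed from library totals. Within the 6 libraries of each comparison, genes were kept by edgeR's default filter (10 counts at the median library size), scaled by TMM and fitted with edgeR 4.0.16 (R 4.3.3, limma 3.58.1) by the quasi-likelihood test with Benjamini-Hochberg adjustment. The 2 contrasts of the liraglutide effect between regions used all 18 libraries. The procedure was tested on simulated data. The 43 members, the 4 further lists (101 genes), the 14 marker lists (73 genes) and the tests were chosen with earlier results of these data known. Genes named with values were a set of 12 members, up to 4 called members per role with the smallest p, up to 6 members where none passed, and up to 3 genes per further list. Bub1 and the sum without Cenpf were added after values were seen.

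The alternatives were DESeq2 1.42.0, RLE factors, no filter, a filter of 1 CPM in 3 libraries, all 18 libraries in the fit, the label number as a block, and each library left out. All fold changes and p-values are from fits without the block unless it is named. Label numbers were taken to pair libraries where all 3 same-numbered correlations of deviations from the group means passed 0.1, and blocked values are then printed where they change a call. The correlations were 0.122 to 0.166 (liraglutide) and 0.152 to 0.173 (PBS) for infarcted and non-infarcted LV, and 0.112 to 0.188 for atria and non-infarcted LV with PBS. The other comparisons did not meet this. Where libraries are not separate animals, p-values measure the spread between libraries only. Intervals of 3 counts cover counting error only.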

Additional observations from a re-analysis of the deposited data

How the results depend on the processing

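The numbers of genes called between liraglutide and PBS moved with the processing. In atria 1 gene passed, against 118 in DESeq2, 3 with no filter on low counts, 94 with all 18 libraries in the fit, 0 with the replicate number as a block and 80 without both atrial libraries that hold markers of other tissue. With each library left out it was 0 to 105, the highest without replicate 3 with liraglutide. The members lower there numbered 0, against 1 (Ccnd1) in DESeq2 and with all 18 libraries, and 0 to 2 with a library left out. In infarcted LV 0 genes passed, against 1 in DESeq2, 35 with no filter (2 of them members, Ccnd1 and Mki67) and 0 to 3 with a library left out. In non-infarcted LV 0 genes passed, against 2 in DESeq2, 5 with no filter and 0 to 2 with a library left out. For the atrial contrast of liraglutide effects 0 genes passed, against 58 in DESeq2, 1 with no filter, 1 with the block, 61 without both atrial libraries and 0 to 118 with a library left out, the highest without atrial replicate 3 with liraglutide. The cause of these moves was not tested.

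Of infarcted against non-infarcted LV with PBS, 17 members were higher, and 9 to 18 with a library left out. The members lower there numbered 0, against 1 (Ccnd2) with no filter and 0 to 1 with a library left out. With liraglutide 18 were higher, against 11 in DESeq2, and 0 to 1 were lower with a library left out. With the replicate block, 19 (liraglutide, with Ccna2 added) and 20 (PBS, with Mcm5, Bub1b, Cenpf and Cdc20 added and Cdkn1a lost) members were higher in infarcted LV, and 9 were higher (Cdc20 added) and 4 lower in atria with PBS. The blocks for atria with liraglutide (6 higher, 4 lower) and for liraglutide against PBS (0 members in each region) rest on numbers that did not pair the libraries (correlations of -0.0714 to -0.00564 in atria against non-infarcted LV with liraglutide, and, for liraglutide against PBS, -0.124 to -0.0615 in infarcted LV, -0.36 to 0.139 in atria and -0.196 to 0.162 in non-infarcted LV). Changes of sign were seen for Ccnd2 in infarcted against non-infarcted LV with liraglutide without non-infarcted replicate 2 (-0.12 to 0.01 with a library left out). In atria they were seen for Top2a (-0.15 to 0.21) and Cdkn1a (-0.01 to 0.32) with PBS without non-infarcted replicate 1, and for Cdkn1a with liraglutide without atrial replicate 1 (-0.22 to 0.51), none of which was called. Of 1109 tested alternatives for the members named, 1010 kept direction and side of the threshold. Depth limits the mitotic genes, many of which had a mean under 1 CPM.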
